A study of Mus musculus with 21 samples.

Results

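The neuropilins Nrp1 and Nrp2 and the semaphorins Sema3a, Sema3c, Sema3d, Sema5a, Sema6a and Sema6d are 8 of the 20284 genes measured in single mesenchymal cells of embryonic mouse back skin. They were taken by symbol, whatever their values, and all 8 were found in the table. The cells came from CD1 mice at E15.0, with no transgene, mutation or treatment named in the labels, when dermal fibroblasts cluster into dermal condensates, the precursors of the hair follicle's dermal papilla. Viable cells, sorted by flow cytometry, were made into 9 libraries with SORT-seq, a plate-based form of CEL-Seq2 that counts each captured RNA molecule once by its unique molecular identifier (UMI). Well names assign 1371 wells to fibroblasts (Fb), 149 to DC0, 152 to DC1 and 151 to DC2, where DC stands for dermal condensate. DC0 is not defined in the labels. The series text states that clusters from the StemID algorithm were matched to stages of condensate development. Where a well's name came from such a cluster, the genes compared here had a part in naming it, and the p-values below are then too small.

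Semaphorins are secreted or membrane-bound guidance proteins first known from growing axons. Secreted class 3 semaphorins bind neuropilins, which have a short cytoplasmic tail and pass the signal on through plexins. Class 5 and class 6 semaphorins span the membrane and bind plexins without a neuropilin. Neuropilins also bind vascular endothelial growth factors, and the family takes part in cell migration, vessel growth and the cohesion of cell groups as well as in innervation of the skin.

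Libraries 1 to 7 each held all 4 populations, library 8 held DC0 and DC2 wells alone, and library 9 DC1 wells alone. Total depth ran from 1447590 UMIs in library 9 to 6424841 in library 5, and the median well had 18509 UMIs among fibroblasts, 12773 in DC0, 10469 in DC1 and 8333 in DC2. In libraries 1 to 7 the condensate populations had only 2 to 8 wells each, and the DC2 wells of library 1 held 2855 UMIs in all. Levels are CPM values, UMIs per 1000000 gene UMIs, summed over the wells of 1 population in 1 library. Nothing in the labels ties libraries to different animals. All p-values therefore refer to the spread among libraries, which may be technical. The 6 condensate markers Sox2, Sox18, Foxd1, Cxcr4, Bmp4 and Cdkn1a together had a median over libraries of 132 CPM in fibroblasts, 2586 in DC0, 2028 in DC1 and 2125 in DC2, and the 6 fibroblast markers, led by collagen genes, had 27238, 10988, 7425 and 8410 CPM. The 10 endothelial genes together had a median of 25.7 CPM in fibroblasts (20.1 to 30.8 over libraries), 28.1 in DC0 (0 to 96.6), 36.7 in DC1 (0 to 97.2) and 98.6 in DC2 (20.9 to 350.3), and 8 of 10 had a UMI in each stage. Among them, Kdr had 1.07 CPM in fibroblasts and 4.45, 16.3 and 30.6 CPM in DC0, DC1 and DC2 of libraries 1 to 7, Flt1 had 0.55, 2.23, 0 and 17.9 CPM, and Pecam1 had 2.93, 2.23, 2.04 and 10.2 CPM. Tie1 and Cldn5 had no UMI in DC0, Emcn and Cldn5 none in DC1, and Tie1 and Emcn none in DC2. Kdr and Flt1, on 12 and 7 UMIs in DC2, and Nrp2 were thus all highest in DC2 of libraries 1 to 7. So were Pecam1, Cdh5, Cldn5 and Plvap, on 1 to 4 UMIs. Tek, Tie1 and Emcn were highest in fibroblasts, and Egfl7 in DC1. In DC2 of library 8 Kdr was at 4.41 and Flt1 at 33.1 CPM, against 11.8 and 18.1 in DC1 of library 9. Pecam1, Cdh5, Tie1, Emcn and Cldn5 had no UMI in DC2 of library 8. The part of endothelial RNA in the neuropilin levels was not tested.

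The genome positions below are those of GRCm38, the build also called mm10. Nrp1 lies on chromosome 8 (128358604-128503363, plus strand) and Nrp2 on chromosome 1 (62703285-62818695, plus strand). Sema3d, Sema3a and Sema3c follow one another on the plus strand of chromosome 5, at 12383385-12588948, 13125414-13602565 and 17574281-17730268. Sema5a is on chromosome 15 (32244810-32696341, plus strand) and Sema6d on chromosome 2 (124089969-124667770, plus strand). An exon of Nrp1 overlaps the microRNA gene Mir1903 on the same strand, and no exon of the other members overlaps an exon of another annotated gene. RefSeq promoter windows of 300 bases (GRCm38.p6, from 250 bases before the start to 50 after it) were available for 7 members. The windows of the receptor pair are shown because Nrp1 and Nrp2 differed from fibroblasts in opposite directions; each is printed 5′ to 3′ on the plus strand and ends before the first exon that begins in it. The Nrp1 stretch starts after the annotated gene start given above, which is that of a retained-intron transcript, and lies in the first intron of that transcript. Capitals mark CTTTGAT, a letter string bound by LEF/TCF factors, which act in Wnt signalling.
Nrp2, chr1:62703067-62703284: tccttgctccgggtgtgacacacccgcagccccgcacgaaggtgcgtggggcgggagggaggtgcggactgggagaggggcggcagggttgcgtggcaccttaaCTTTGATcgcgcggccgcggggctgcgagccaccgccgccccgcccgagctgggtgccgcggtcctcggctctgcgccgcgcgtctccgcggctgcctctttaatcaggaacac
Nrp1, chr8:128358823-128359072: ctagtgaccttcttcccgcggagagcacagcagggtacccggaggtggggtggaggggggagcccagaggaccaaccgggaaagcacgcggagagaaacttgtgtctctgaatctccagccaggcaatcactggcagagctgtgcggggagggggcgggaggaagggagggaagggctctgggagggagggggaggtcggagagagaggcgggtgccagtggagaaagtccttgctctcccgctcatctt
The Nrp2 window held 1 match to CTTTGAT, which begins at base 105, and the Nrp1 window held none on either strand. Of 32851 RefSeq windows of the same length, 3.73% held CTTTGAT on either strand. GC content over the whole window was 70.7% for Nrp2, with 37 CG pairs, and 64% for Nrp1, with 14. The windows of the other matched members held no CTTTGAT, and no member's window held AACAAT (SOX factors, in 10.7% of windows) or GACCACCCA (GLI factors, in 0.253%). The Sema3c window held 1 CATCTG, an E-box string in 17.2% of windows. These 4 strings were chosen after the windows had been seen, and a match is a description of letters only.

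Nrp2, the neuropilin bound by Sema3c, Sema3d and Sema3f among other ligands, was the member with the largest rise in condensate wells. In fibroblasts of the 7 libraries its level ran from 52.6 to 82.2 CPM with a median of 68.6. The lowest, median and highest library had 84.2, 279.3 and 559 CPM in DC0, 506, 794 and 1289 CPM in DC1, and 0, 1000 and 1490 CPM in DC2. Every DC0 and DC1 library lay above every fibroblast library, and so did the DC2 libraries other than library 1, whose 4 DC2 wells held no neuropilin UMI. Libraries 8 and 9, with over 100 wells of each population they held, gave 256 CPM in DC0, 866 in DC1 and 1151 in DC2.

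The first comparison asked how the condensate wells as a whole differ from fibroblasts, and summed DC0, DC1 and DC2 wells in the 6 libraries with at least 10 of them. With library as a blocking factor, edgeR's quasi-likelihood test was run on 9640 genes, with adjustment by Benjamini-Hochberg; 7 of 8 members passed an adjusted p of 0.05, against 23.6% of all genes tested. Nrp2 rose from 69.9 ± 11.2 CPM in fibroblasts to 647 ± 117 in condensate wells (SD, n = 6 libraries), a log2 fold change of 3.10 (SE 0.14, adjusted p = 8.69e-21). The lowest condensate sum, 560 CPM, was above the highest fibroblast sum, 82.2 CPM. Within the 3 of these libraries that share a sequencing run the Nrp2 log2 fold change was 2.96, and in the 3 others 3.18.

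Nrp1, the receptor of Sema3a and of vascular endothelial growth factor, moved the other way. Its fibroblast level ran from 604 to 698 CPM with a median of 633 over 7 libraries. The lowest, median and highest library had 74.9, 281 and 676 CPM in DC0, 51.7, 256.8 and 428 CPM in DC1, and 0, 188 and 396 CPM in DC2. Every DC1 library lay below every fibroblast library, and so did the DC2 libraries other than library 1. The DC2 wells of library 1 held no Nrp1 UMI, but 3 UMIs there would be 1051 CPM, so this 0 cannot show a lower level. Library 2 had more Nrp1 in its 3 DC0 wells than in its fibroblasts. In the 6 libraries of the first comparison Nrp1 fell from 642 ± 33.3 CPM to 308.4 ± 89.4 (SD, n = 6), a log2 fold change of -1.22 (SE 0.14, edgeR adjusted p = 2.57e-09). The Nrp1 log2 fold change was -1.43 within the shared sequencing run and -1.03 in the other libraries.

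**Figure D1:**
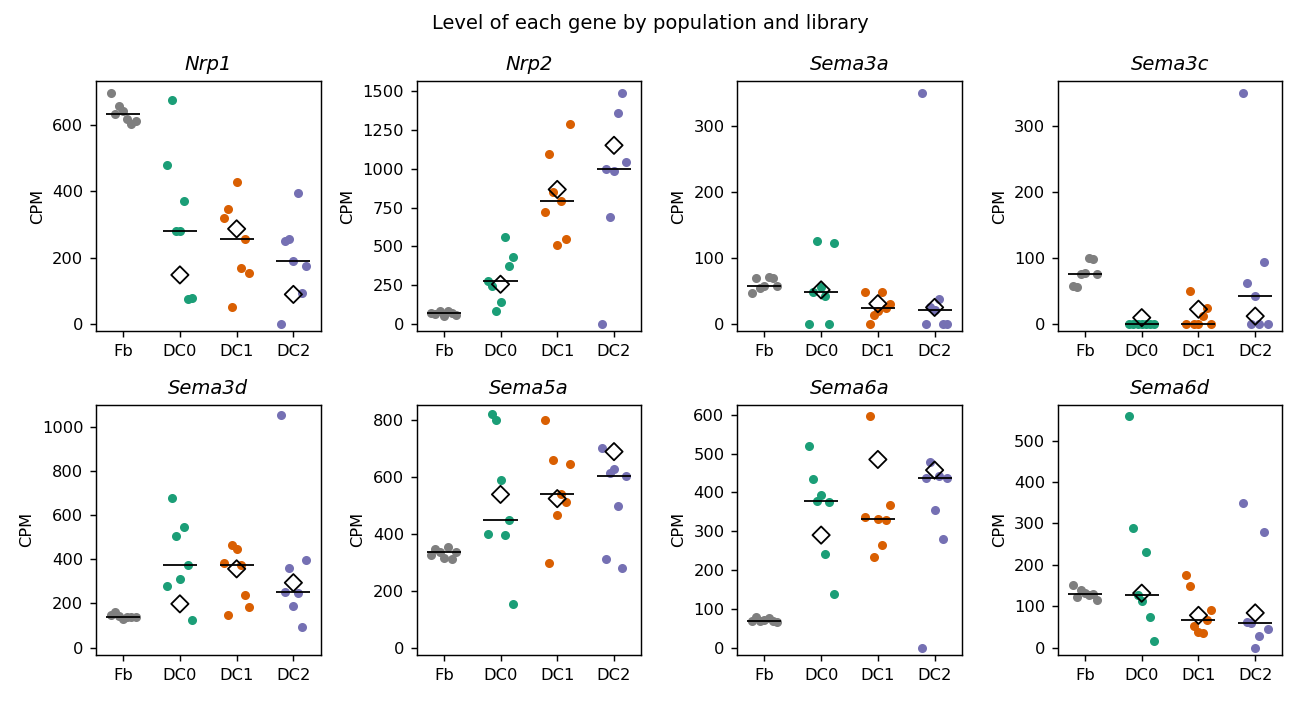
Level of each gene in CPM (linear axis) by population: filled points are libraries 1 to 7, black bars their medians, and open diamonds libraries 8 (DC0, DC2) and 9 (DC1). Nrp2 and Sema6a lie higher and Nrp1 lower in most condensate sums than in the fibroblast sums, whose points sit close together. The DC2 points of library 1 rest on 2855 UMIs. They lie at 0 for Nrp1, Nrp2 and Sema6a and far above the other DC2 points for Sema3a, Sema3c and Sema3d.

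Because CEL-Seq2 counts 1 end of each molecule, UMIs of the receptor pair can be set against each other without dividing by length. Nrp2 made up 9.64% ± 1.43 of all neuropilin UMIs in fibroblasts (SD, n = 7 libraries), 49.7% ± 26.3 in DC0 (n = 7), 76.2% ± 13.8 in DC1 (n = 7) and 82.3% ± 7.34 in DC2 (n = 6, without library 1). In fibroblasts the share ran from 7.59% to 11.6%, and the lowest share in any condensate sum, 23.1% in DC0 of library 3, was above that range. The DC0 libraries fell between 23.1% and 84.8%, a wider range than in DC1 (54.2% to 94.3%) or DC2 (73% to 94.1%). Libraries 8 and 9 gave 63.4% in DC0, 75.1% in DC1 and 92.8% in DC2.

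This share was chosen for testing after its values had been seen, and 6 pairs of populations were compared with a two-sided exact permutation test that flips signs within libraries. The share was higher than in fibroblasts in 7 of 7 libraries for DC0, by 40.1 percentage points, and in 7 of 7 for DC1, by 66.6 points (each exact permutation p = 0.0156, the smallest 7 libraries can give, adjusted p = 0.0469). It was higher in 6 of 6 libraries for DC2, by 72.6 points, and higher in DC2 than in DC0 in 6 of 6, by 30.5 points (each exact permutation p = 0.0312, the smallest possible with 6, adjusted p = 0.0469). DC1 exceeded DC0 in 6 of 7 libraries, by 26.5 points, but the adjusted exact permutation p was 0.0563. DC2 and DC1 differed by 4.99 ± 19.7 points (SD, n = 6; exact permutation p = 0.531), with 3 libraries higher in DC2.

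**Figure D2:**
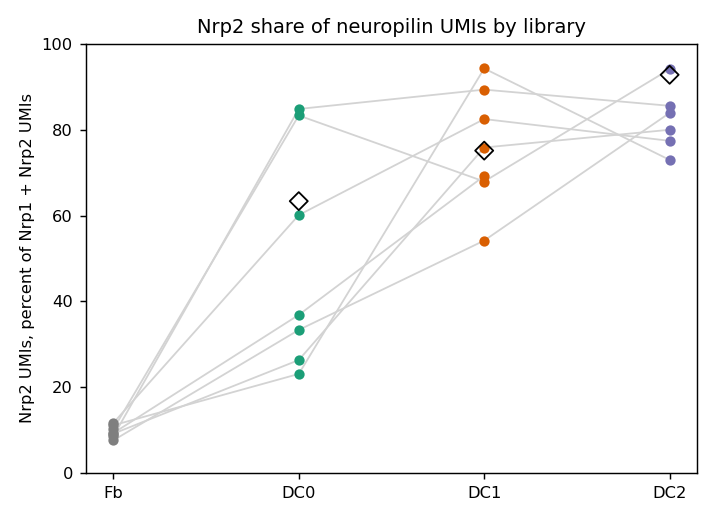
Nrp2 UMIs as a percent of Nrp1 and Nrp2 UMIs together, by population; each grey line joins the values of 1 library (1 to 7), and open diamonds are libraries 8 and 9. Fibroblast values sit at 7.59% to 11.6%, DC0 values are spread from 23.1% to 84.8%, and DC2 values lie at 73% or above. Most DC0 points rest on few UMIs.

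Single wells were also scored for the receptor pair. To compare wells of unequal depth, each well was thinned to 3000 UMIs and shallower wells were left out, which removed 216 fibroblast, 34 DC0, 13 DC1 and 64 DC2 wells. Nrp1 without Nrp2 was seen in 64.8% of fibroblast wells, 27.8% of DC0, 8.63% of DC1 and 3.45% of DC2 wells. Nrp2 without Nrp1 was seen in 4.33%, 28.7%, 51.8% and 64.4% of these wells. Both were seen in 11.6% of fibroblast wells, 13% of DC0, 29.5% of DC1 and 20.7% of DC2 wells, and neither in 19.3%, 30.4%, 10.1% and 11.5%. Over the thinned fibroblast wells the mean Spearman correlation of Nrp1 with Nrp2 was -0.042 (-0.14 to 0.045 over libraries). Whether the receptors avoid each other in a well, beyond how often each was found, was not tested. Most DC0 and DC2 wells come from library 8 (94 of 115 and 65 of 87 after thinning) and most DC1 wells from library 9, so these shares describe mainly those plates. Neither plate holds fibroblast wells, so stage and plate cannot be told apart in most of the contrast with fibroblasts.

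The exact 95% binomial intervals (Clopper-Pearson, counting error only) for wells with an Nrp2 UMI after thinning were 13.9% to 18.2% around 15.9% in fibroblasts and 32.6% to 51.3% around 41.7% in DC0. They were 73.8% to 87.4% around 81.3% in DC1 and 75.8% to 91.8% around 85.1% in DC2. Without thinning the Nrp2 shares were 48.2%, 67.8%, 90.8% and 65.6%. In the wells named for spike-in RNA, 16 in each of the 9 libraries, which should hold no cell, 7.64% had an Nrp2 UMI and 9.72% an Nrp1 UMI, at a median of 431 UMIs per well against the depths given above.

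Next, the stages were compared with fibroblasts and with one another in a single edgeR fit over 30 sums of libraries 1 to 8, in which 2069 genes passed the filter on low counts. Sema3a and Sema3c did not pass, so 6 members were tested. Nrp2 and Sema6a, at fibroblast levels like those of Sema3a and Sema3c, passed only through their high condensate sums. The counts of members called by stage are therefore shaped by the filter, which favours members high in condensate wells. In DC0 against fibroblasts 4 of 6 members passed an adjusted p of 0.05 (26.5% of all genes tested), in DC1 6 of 6 (32.6%) and in DC2 6 of 6 (44.8%). These comparisons share the fibroblast sums. Nrp2 had log2 fold changes of 1.99 (SE 0.27, edgeR adjusted p = 4.75e-07) in DC0, 3.43 (SE 0.25, adjusted p = 1.97e-13) in DC1 and 3.74 (SE 0.26, adjusted p = 4.10e-14) in DC2. Those of Nrp1 were -1.22 (SE 0.26, adjusted p = 4.58e-04), -1.54 (SE 0.27, adjusted p = 2.54e-05) and -1.55 (SE 0.28, adjusted p = 2.25e-05). In the libraries outside the shared sequencing run the Nrp1 calls in DC0 (-0.81, adjusted p = 0.134) and DC1 (-0.93, adjusted p = 0.0839) were lost.

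Between stages, Nrp2 was the sole member that passed from DC0 to DC1 (1.16% of all genes tested), with a log2 fold change of 1.45 (SE 0.28, edgeR adjusted p = 0.00227). It was higher in DC1 in 7 of 7 libraries. This call rests on few wells: with at least 5 wells per sum the Nrp2 log2 fold change was 1.22 and the adjusted p 0.636, and it was 0.166 within the shared sequencing run and 0.0682 in the other libraries. From DC0 to DC2 Nrp2 rose by 1.75 on the log2 scale (SE 0.26, edgeR adjusted p = 7.29e-06), and Sema6d fell by 1.27 (SE 0.38, adjusted p = 0.0187); 17.6% of all genes tested passed. From DC1 to DC2 no member passed with edgeR (2.46% of all genes tested) or DESeq2, none had an unadjusted p under 0.05 with either tool, and the Nrp2 difference was 0.30 (SE 0.26). Nrp1 did not pass between any stages, with log2 differences of -0.33 (SE 0.33) from DC0 to DC1 and -0.33 (SE 0.30) from DC0 to DC2.

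**Figure D3:**
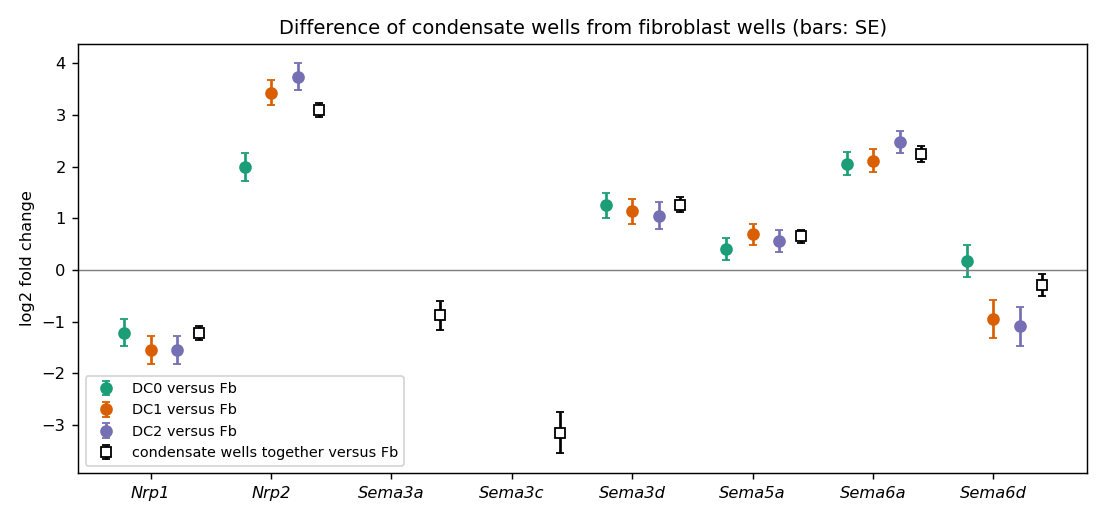
Log2 fold change against fibroblasts for each gene, with standard errors: filled circles are DC0, DC1 and DC2 from the fit of 30 sums, and open squares are all condensate wells together in 6 libraries. Sema3a and Sema3c have squares only, since they did not pass the filter on low counts in the fit by stage; the Nrp2 circles stand at 1.99, 3.43 and 3.74.

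Among the secreted ligands, Sema3d rose and Sema3a and Sema3c fell in condensate wells. Sema3d, a class 3 ligand known from vessel and heart development, had 130 to 159 CPM in fibroblasts with a median of 140. Its lowest, median and highest library had 123.2, 375 and 676 CPM in DC0, 149, 373 and 465 in DC1, and 93.1, 250 and 1051 in DC2. In each stage 6 of 7 libraries lay above the fibroblast range; in DC1 library 2 fell inside it, and in DC0 library 7 and in DC2 library 6 lay below it. Over the 6 summed libraries Sema3d rose from 142 ± 10.1 to 362 ± 65.4 CPM (SD, n = 6), a log2 fold change of 1.26 (SE 0.14, edgeR adjusted p = 3.80e-09), and the sums did not overlap. Its log2 fold changes by stage were 1.25 (SE 0.24, adjusted p = 9.31e-05) in DC0, 1.14 (SE 0.24, adjusted p = 3.40e-04) in DC1 and 1.05 (SE 0.26, adjusted p = 0.00122) in DC2. Without the filter on low counts Sema3d in DC2 had an adjusted p of 0.143, and in the libraries outside the shared run its calls in DC0 (0.0799) and DC2 (0.0940) were lost.

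Sema3c, a class 3 ligand that acts on cardiac neural crest and endothelial cells, was nearly absent from condensate wells. Fibroblast libraries ran from 56.1 to 99.4 CPM with a median of 75.2. No Sema3c UMI was found among 448961 UMIs of DC0 wells in libraries 1 to 7, where 3 UMIs would be 6.68 CPM. Their pooled fibroblasts had 80.6 CPM, at least 12.1-fold more if UMIs are counted as independent. The DC0 UMIs came from only 2 to 6 wells per library, so this bound covers counting error only and not differences among wells. The more deeply sequenced DC0 wells of library 8, which has no fibroblasts, held 14 Sema3c UMIs. DC1 had 6 UMIs and DC2 had 5 in the same libraries (12.2 and 12.8 CPM), and libraries 8 and 9 gave 9.49 CPM in DC0, 22.3 in DC1 and 11.8 in DC2. In the comparison of the summed condensate wells Sema3c fell from 77.3 ± 19.1 to 14.5 ± 13.2 CPM (SD, n = 6) on 11 UMIs, a log2 fold change of -3.15 (SE 0.40, edgeR adjusted p = 4.34e-08). That value was -3.80 within the shared run and -2.01 (adjusted p = 0.0249) in the other libraries. Without the filter the fit by stage gave adjusted p-values of 3.74e-10 in DC0, 1.52e-06 in DC1 and 8.16e-08 in DC2.

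Sema3a, the ligand through which the collapse of growth cones was discovered, ran from 47.6 to 71.4 CPM in fibroblasts with a median of 57.5. Its lowest, median and highest library had 0, 48.3 and 126.3 CPM in DC0, 0, 24.5 and 48.1 in DC1, and 0, 20.9 and 350 in DC2, where the highest value is 1 UMI in library 1. All 3 stages overlapped the fibroblast range. The summed condensate wells had 33.5 ± 13.5 CPM against 61.5 ± 9.96 (SD, n = 6), a log2 fold change of -0.88 (SE 0.28, edgeR adjusted p = 0.0174). The call was lost without library 6 (adjusted p = 0.115) and in the libraries outside the shared run (0.335), and the direction turned at 3000 UMIs per well (log2 fold change 0.14, adjusted p = 0.929). Without the filter Sema3a had adjusted p-values of 0.652 in DC0, 0.0258 in DC1 and 9.71e-04 in DC2.

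Of the transmembrane members, Sema6a rose most. This class 6 semaphorin binds A-type plexins. Fibroblasts had 67.3 to 78 CPM with a median of 69.5. Its lowest, median and highest library had 138.6, 378.9 and 519 CPM in DC0, 232.5, 331 and 596 in DC1, and 0, 437 and 478 in DC2. Every condensate sum except the DC2 wells of library 1 lay above every fibroblast library. Over the 6 summed libraries the rise was from 72.1 ± 4.56 to 374 ± 64.9 CPM (SD, n = 6), a log2 fold change of 2.25 (SE 0.15, edgeR adjusted p = 1.39e-15). It was 2.13 within the shared run and 2.31 in the other libraries. The rise was of like size at each stage, with log2 fold changes of 2.06 (SE 0.22), 2.11 (SE 0.22) and 2.47 (SE 0.22) in DC0, DC1 and DC2, and differences between stages of 0.06 (SE 0.24) from DC0 to DC1, 0.36 (SE 0.24) from DC1 to DC2 and 0.41 (SE 0.22) from DC0 to DC2, none of which passed the test.

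Sema5a, a class 5 semaphorin with thrombospondin repeats, rose by less. Its fibroblast level ran from 311 to 354.2 CPM with a median of 336, and the medians over libraries were 450 CPM in DC0, 541 in DC1 and 603 in DC2. At least 1 library of each stage was below the fibroblast range. The summed condensate wells had 560 ± 99.9 CPM against 332 ± 17.3 (SD, n = 6), a log2 fold change of 0.65 (SE 0.13, edgeR adjusted p = 1.36e-04). In the libraries outside the shared run it was 0.66 (adjusted p = 0.0587). By stage its log2 fold change was 0.40 in DC0 (SE 0.21, adjusted p = 0.156), 0.69 in DC1 (SE 0.20, adjusted p = 0.00807) and 0.56 in DC2 (SE 0.21, adjusted p = 0.0301). The Sema5a calls in DC1 and DC2 were lost without the filter (adjusted p 0.41 and 0.949) and within either set of sequencing runs. The DC2 call was also lost without library 3, 4 or 8 (from 0.0538 to 0.103), and a DC0 call was gained without library 7 (0.0249).

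Sema6d, the class 6 ligand of Plxna1 and Plxna4, did not differ between the summed condensate wells and fibroblasts beyond the spread: 132 ± 89.4 against 133.1 ± 9.81 CPM (SD, n = 6; log2 fold change -0.29, SE 0.21, edgeR adjusted p = 0.356). With each well thinned to 3000 UMIs it was called lower, with a log2 fold change of -1.43 (SE 0.42, adjusted p = 0.0117). The condensate sums ran from 44.5 to 288 CPM, around the fibroblast range of 123.1 to 150.1. By stage its lowest, median and highest library had 15.4, 126.3 and 559 CPM in DC0, 36.1, 67.3 and 176 in DC1, and 0, 59.8 and 350 in DC2. The stages overlapped one another and the fibroblasts. Its log2 fold change against fibroblasts was 0.18 in DC0 (SE 0.31, adjusted p = 0.758), -0.95 in DC1 (SE 0.37, adjusted p = 0.0453) and -1.09 in DC2 (SE 0.38, adjusted p = 0.0182). The DC1 call was lost with DESeq2 (adjusted p = 0.0644), with RLE size factors (0.0592), without the library block (0.0668) and without any 1 of libraries 3 to 7 (from 0.0552 to 0.157). It was also lost within the shared run (0.0546), in the other libraries (0.644), with at least 5 wells per sum (0.340) and with sums of at least 10000 UMIs (0.0514). The DC2 call was lost without library 3, 4, 5 or 7 (from 0.0555 to 0.107) and in the libraries outside the shared run (0.481). The fall from DC0 to DC2 was lost without library 5 (0.168), within the shared run (0.190) and in the other libraries (0.227).

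Library 8 allowed DC0 and DC2 to be set side by side on 1 plate, from 1475360 and 1359197 UMIs. With 1 library there is no test, and the 95% intervals of the ratios cover counting error only. Nrp2 was 4.50 times as high in DC2 as in DC0 (4.02 to 5.05) and Nrp1 0.602 times (0.478 to 0.756). Sema6a had a ratio of 1.58 (1.39 to 1.79), Sema3d 1.48 (1.27 to 1.73) and Sema5a 1.28 (1.16 to 1.41). Sema3a had 0.486 (0.314 to 0.737) and Sema6d 0.638 (0.502 to 0.808), and for Sema3c, on 16 and 14 UMIs, the ratio of 1.24 had an interval of 0.567 to 2.74. Thinned to 3000 UMIs per well, the ratios moved to 0.369 for Nrp1, 1.01 for Sema5a and 0.434 for Sema6d. On this plate DC0 took the wells up to number 246, and DC2 lay in wells 247 to 376, so position and population cannot be told apart.

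**Figure D4:**
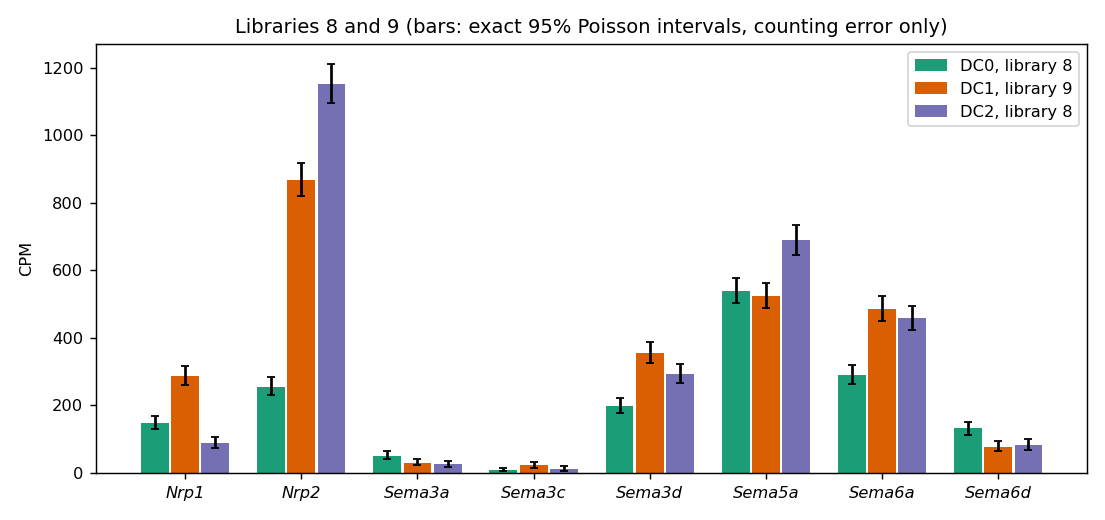
CPM of each gene in the DC0 and DC2 wells of library 8 and the DC1 wells of library 9, with exact 95% Poisson intervals that cover counting error only. Nrp2 stands at 256, 866 and 1151 CPM in DC0, DC1 and DC2, while Nrp1 stands at 148, 287 and 89 CPM.

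The fibroblast wells were not uniform in these genes. Fibroblast wells of at least 3000 UMIs were ranked in each of libraries 1 to 7 by a score of upper dermal markers (Crabp1, Twist2, Apcdd1, Lrig1, Axin2 and Lef1) minus lower dermal markers (Dlk1, Mfap5, Ly6a, Cd34, Pi16 and Nov). The 383 highest-scoring wells were compared with the 383 lowest-scoring of 1155 in all, and 209 wells lay within 0.1 score units of either boundary. The arms are ranges of a score and not cell types, and no member is in the score. With edgeR, 7 of 8 members passed an adjusted p of 0.05 here, against 45.7% of 9704 genes tested, so that a pass by itself says little.

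The sizes differed widely among the ligands. Sema6d had 348 ± 53.5 CPM in the high-scoring and 18.4 ± 6.33 in the low-scoring wells (SD, n = 7 libraries), a log2 fold change of 4.03 (SE 0.12, edgeR adjusted p = 3.19e-20), and the arms did not overlap (289 to 454 against 10.3 to 27.5 CPM). Sema3c went the other way, from 196.8 ± 44.2 CPM in the low-scoring to 2.58 ± 2.61 in the high-scoring wells, a log2 fold change of -6.17 (SE 0.19, adjusted p = 2.56e-20), again with no overlap. Sema3a was lower in the high-scoring wells by 1.07 on the log2 scale, at 51.1 against 94 CPM (adjusted p = 4.51e-08). Sema3d was higher by 1.12, at 226 against 94 CPM (adjusted p = 9.42e-10), and Sema5a by 0.44, at 440 against 294 CPM (adjusted p = 7.74e-06).

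The receptors were also unequal between the arms. Nrp2 had 40.6 ± 11.5 CPM in the high-scoring and 102.4 ± 21.8 in the low-scoring wells (SD, n = 7), a log2 fold change of -1.49 (SE 0.14, edgeR adjusted p = 5.00e-10). Nrp1 had 701 ± 76.9 against 540 ± 48 CPM, a log2 fold change of 0.25 (SE 0.05, adjusted p = 3.06e-04), and its arms overlapped. Sema6a did not pass, at 63.6 ± 9.66 against 62.9 ± 7.35 CPM (log2 fold change -0.14, SE 0.11, adjusted p = 0.335). Other cell markers moved with the arms: the condensate list had a median of 218 CPM in high-scoring against 51.2 in low-scoring wells, the list of 8 pericyte and smooth muscle genes 102.4 against 325 CPM, and the list of 10 endothelial genes 13.8 against 34.5 CPM. Their part in these differences was not tested.

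**Figure D5:**
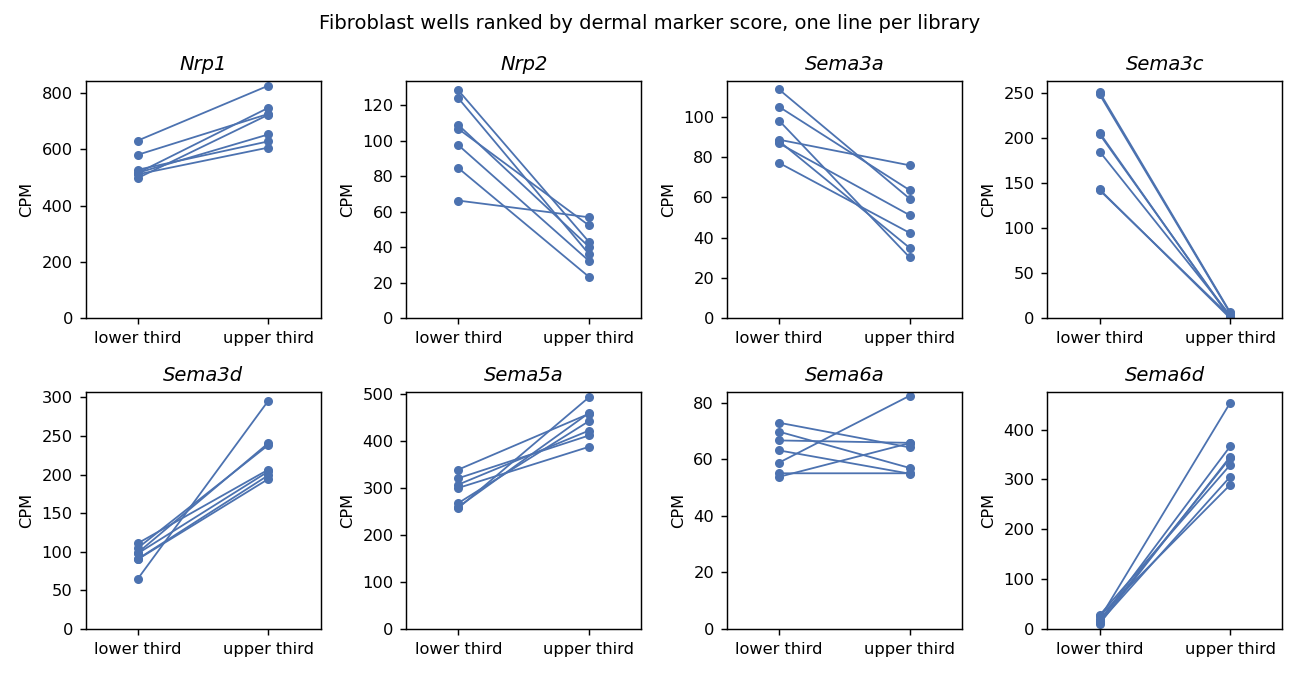
CPM of each gene in the lowest-scoring and highest-scoring fibroblast wells, with 1 line per library (1 to 7) and axes from 0. All 7 lines fall for Sema3c, Nrp2 and Sema3a and rise for Sema6d, Sema3d, Sema5a and Nrp1, while those of Sema6a cross.

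Since fibroblast wells differ so much, the condensate wells were also set against the high-scoring fibroblasts alone, a control chosen after the data had been seen. Sema6d was then lower in every stage: its log2 fold change was -1.56 in the summed condensate wells (edgeR adjusted p = 5.19e-06), -1.15 in DC0 (adjusted p = 0.00434), which reverses the sign of its 0.18 against all fibroblasts, -2.25 in DC1 and -2.42 in DC2. Nrp2 stood at 3.88 in the summed wells and at 2.81, 4.26 and 4.54 in DC0, DC1 and DC2. Nrp1 at -1.29 and Sema6a at 2.49 in the summed wells also passed. Sema3d kept its call in the summed wells at 0.73 (adjusted p = 4.78e-04) but lost it in DC1 (0.0944) and DC2 (0.139), and Sema5a (0.0670) and Sema3a (0.288) lost theirs. Sema3c, at 2.58 ± 2.61 CPM in these controls, was too low to be tested against them. Its 14.5 ± 13.2 CPM in the summed condensate wells, on 11 UMIs, lay above that level and not below it, the opposite direction to that against all fibroblasts.

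Of the 9 plexins, through which both kinds of semaphorin signal, 7 were tested in the summed condensate wells. None passed an adjusted p of 0.05 with edgeR, against 23.6% of all genes tested. None passed with DESeq2, against 880 higher and 1164 lower of 9640 genes. An unadjusted p under 0.05 was found for 2 with edgeR and 1 with DESeq2, against 3276 and 3072 of the 9640 genes. Plxna1, a partner of neuropilins, had 104 ± 56.2 against 62.2 ± 13.9 CPM (SD, n = 6; adjusted p = 0.0834), Plxna4 74.6 ± 56.2 against 54.4 ± 10.2 (0.312) and Plxnb2, a receptor of class 4 semaphorins, 94.2 ± 37.1 against 115.9 ± 28.4 (0.188). Plxnb1 had a log2 fold change of 0.97 (SE 0.46; edgeR unadjusted p = 0.0387, adjusted p = 0.122), and Plxna1 was the other with an unadjusted p under 0.05. The log2 fold changes of the others were 0.24 for Plxna3 (SE 0.38, edgeR adjusted p = 0.704), -0.66 for Plxnd1 (SE 0.65, 0.523) and -0.83 for Plxna2 (SE 0.60, 0.355). Plxnb3 and Plxnc1 did not pass the filter. Plxna4 had 52 and 45 UMIs in the DC0 and DC1 wells of libraries 1 to 7 and 4 in DC2. Libraries 8 and 9 gave Plxna4 101.7 CPM in DC0, 54.3 in DC1 and 10.3 in DC2, a difference not tested between stages because the gene did not pass the filter there.

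Between the fibroblast arms Plxna4 had 109 ± 15.4 CPM in high-scoring and 11.6 ± 6.7 in low-scoring wells (SD, n = 7; log2 fold change 3.05, SE 0.17, edgeR adjusted p = 3.05e-14), the same direction as its ligand Sema6d. Plxnd1, the receptor of Sema3e, was also higher in high-scoring wells (0.76, adjusted p = 0.0240), and Plxnc1 (-1.71, adjusted p = 9.13e-05) and Plxnb2 (-0.41, adjusted p = 8.04e-05) were lower. Plxna1, Plxna2, Plxna3 and Plxnb1 did not pass. Of the other semaphorins, Sema5b had 3.79 against 72.4 CPM (log2 fold change -4.43, adjusted p = 7.18e-17), Sema6c 11.7 against 58.5 (-2.50, adjusted p = 1.56e-13) and Sema3f 84.6 against 63 (0.31, adjusted p = 0.0257). These 3 are named after their values were seen.

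Of 76 other genes of the pathway 75 were in the table, and 46 were tested in the summed condensate wells: 7 were higher and 6 lower with edgeR, against 10.4% and 13.2% of all genes tested, and their median log2 fold change was -0.25, against -0.03 for all genes. The higher genes with the smallest adjusted p were Sema4c, a class 4 semaphorin (log2 fold change 1.57, adjusted p = 9.76e-05), Crmp1, a collapsin response mediator (2.03, adjusted p = 3.45e-04), Mical1, an actin-oxidizing enzyme downstream of plexins (1.08, adjusted p = 0.00101) and Vegfa, the growth factor that binds neuropilins (0.82, adjusted p = 0.00122). Vegfa had 135 ± 49 CPM in condensate wells against 74.9 ± 6.46 in fibroblasts (SD, n = 6). The lower genes were Nrcam, an adhesion molecule of axons (-2.42, adjusted p = 3.08e-04), the lymphatic growth factors Vegfc (-2.24, adjusted p = 4.19e-04) and Figf, also called Vegfd (-0.79, adjusted p = 0.00329), and the small GTPase Rap1a (-0.77, adjusted p = 0.00970). The 4 tested semaphorins that are not members had 1 call, Sema4c, and Sema3f, a ligand of Nrp2, had 56 ± 7.24 against 80.9 ± 9.38 CPM (adjusted p = 0.0593).

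In the fit by stage only 12 of these genes were tested. Vegfa passed in DC0 (log2 fold change 1.00, edgeR adjusted p = 0.0105) and DC1 (0.91, adjusted p = 0.0211), and Figf in DC1 (-1.87, adjusted p = 3.13e-04), in DC2 (-1.44, adjusted p = 0.00200) and from DC0 to DC2 (-1.21, adjusted p = 0.0231). Integrin subunit Itgb1 passed in DC0 (-0.52), the kinase Fyn in DC0 (0.90) and Rap1b in DC1 (-0.64). Between the fibroblast arms 47 were tested, 11 higher and 17 lower in high-scoring wells, against 23.3% and 22.4% of all genes tested.

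As a description, each member that passed the filter by stage was matched with the genes whose log2 level (of CPM plus 50) ran most alike over the 30 sums, among 2068 others; the sums share libraries and populations, so all correlations carry the contrast with fibroblasts. Nrp2 was most like Fbln2 (Pearson r = 0.91), Glis2 (0.896) and Igfbp4 (0.887), and Sema6a most like Trps1 (0.946), Cd24a (0.928) and Dclk1 (0.924). Nrp2 and Sema6a had an r of 0.778 with each other. Sema3d and Sema5a were each among the 3 nearest genes of the other (0.717), beside Syne1 and Ism1 for Sema3d and Cdkn1a and Nnat for Sema5a. The nearest genes of Nrp1 were Ctsk (0.769), Rcn3 and Maged1, and those of Sema6d Arpc1b (0.675), Arf4 and Ash2l.

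Within fibroblast wells thinned to 3000 UMIs the members were found at very different rates: Nrp1 in 76.4% of wells, Sema5a in 57.6%, Sema3d in 32.3%, Sema6d in 30.3%, Sema6a in 17.1%, Nrp2 in 15.9%, Sema3a in 14.4% and Sema3c in 9.35%. In DC2 wells the same shares were 24.1%, 74.7%, 51.7%, 16.1%, 66.7%, 85.1%, 6.90% and 3.45%. Over the 7 fibroblast libraries the Nrp1 share ran from 69.6% to 78.1% and the Sema3c share from 5.71% to 12.2%. Markers of Schwann cells were higher in the condensate wells, with a median over libraries for the list of 8 genes of 96.4 CPM in fibroblasts and 439, 654 and 734 CPM in DC0, DC1 and DC2. Most of that was Ngfr, at 87.4 CPM in fibroblasts and 570, 791 and 748 CPM in the 3 stages of libraries 1 to 7. In the DC1 wells of library 9 Sox10 was at 173 CPM; the part of these markers in the levels of neuropilins and semaphorins was not tested.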

How the data were processed

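The deposited table holds expected counts per gene and well: each value equals the UMI number that the authors' correction for barcode collisions gives with 4096 barcodes, checked on the 7480233 values above 0. Correction and counting steps are not given in the sources used here. Per the submitters' processing notes, the build was mm10 and the tools BWA 0.6.2-r126, Bowtie2, TopHat2 2.0.3 and Cufflinks 2.1.1. Values were rounded to whole UMIs, which changed 13.5% of values above 0; the design had assumed counts. The 86 spike-in rows were left out, and the 12 bulk samples were not analysed here. Doublets were not called. Values of some single marker genes are not reported here.

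UMIs were summed per population and library (at least 2 wells, or 10 for condensate wells together). Sums were tested in edgeR 4.0.16 (R 4.3.3, TMM, filterByExpr, quasi-likelihood test, threshold 0.05), with library as a block because the populations share plates. The fit was also run on simulated data with a fixed dispersion and no library effect, unlike the real data. It called 43% of 2-fold and 91% of 4-fold changes in the condensate comparison, so genes that did not pass there may differ. From DC0 to DC2 it called 65% and 99%, and between the fibroblast arms 90% and 100%. The SE of an edgeR log2 fold change is its absolute value divided by the square root of the F statistic. It is thus derived from the test and not estimated apart from it. DESeq2 1.42.0 was an alternative. The fibroblast score is a mean of log2(CPM + 100). Members and lists were chosen with earlier results of these data known. Text names all members, every tested plexin, up to 4 further pathway genes per direction in the condensate comparison, and 3 most alike genes per member.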

Additional observations from a re-analysis of the deposited data

Results flagged for a closer look

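The levels of each member over 4 or more libraries of 1 population were searched for a single library far from the others. Dixon's criterion at 5% was used in 32 groups. That rate holds for values of equal precision, and these sums differ widely in depth. How many groups are picked out by chance is therefore not known. Sema3c stood apart in the DC0 wells of library 8, at 9.5 CPM on 14 UMIs, where the other 7 libraries had 0 on far fewer wells. The DC2 wells of library 1 stood apart for Sema3a and Sema3c (350.3 CPM each, 1 UMI), for Sema3d (1050.8 CPM, 3 UMIs) and for Sema6a (0.0 CPM), all from 4 wells with 2855 UMIs together.

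The wells named for spike-in RNA, 16 in each library, which entered no comparison, held 72455 gene UMIs. Among these were 16 of Nrp1, 15 of Nrp2, 4 of Sema3a, 5 of Sema3c, 11 of Sema3d, 30 of Sema5a, 16 of Sema6a and 14 of Sema6d, all above the 3 UMIs that a count of 0 allows. Nrp1 was at 220.8 and Nrp2 at 207 CPM in these wells.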

How the results depend on the processing

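Counts of members called depended on depth and on the libraries used. Against fibroblasts, with wells thinned to 3000 UMIs, 1 member was called in each of DC0, DC1 and DC2, and 1 from DC0 to DC2, because only 1 passed the filter there. In the libraries outside the shared sequencing run the counts were 2 in DC0, 3 in DC1 and 3 in DC2. From DC0 to DC2 the count was 1, as within the shared run. Outside that run, of 1213 genes, 99 were higher and 108 lower in DC0, 115 and 92 in DC1, and 135 and 142 in DC2. From DC0 to DC2, 31 and 17 of 1213 genes passed outside the run, and 85 and 65 of 2537 within it. From DC0 to DC1 the count was 0 within the shared run, in the other libraries and with at least 5 wells per sum. Over all genes, 1 was higher and 1 lower of 2537, 3 and 0 of 1213, and 2 and 0 of 5214 in these settings. Leaving out each library in turn gave 6 to 7 members for all condensate wells together, 4 to 5 in DC0, 5 to 6 in DC1, 4 to 6 in DC2, 1 from DC0 to DC1, 1 to 2 from DC0 to DC2 (1 without library 5), 0 from DC1 to DC2 and 7 between the fibroblast arms. Without the library block the counts were 7 for all condensate wells, 4, 5 and 6 in DC0, DC1 and DC2, and 7 between the fibroblast arms. Among values called in the main or the alternative setting, signs turned for Sema3a in all condensate wells at 3000 UMIs per well (log2 fold change 0.14) and for Sema6d in DC0 against high-scoring fibroblasts (-1.15), an alternative chosen after the data were seen, as were sums of at least 10000 UMIs. A further 26 signs turned for members called in neither setting, among them Sema6d in DC0 without library 1 (-0.08), without the filter (-0.13) and within the shared run (-0.06). The causes were not tested, beyond the fewer genes or libraries that an alternative leaves. Of the values for single members and shares, 802 stayed on their side of the threshold or within their error, 46 lost their call, 3 gained one, 28 moved (mostly shares of wells at 6000 UMIs) and 2 reversed. Condensate sums of 2 to 8 wells limit all results by stage, above all for Sema3a and Sema3c.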
